A study of Mus musculus with 22 samples.

Results

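Quiescent NIH/3T3 cells, a mouse embryonic fibroblast line, were driven back toward the cell cycle in 2 ways, and the changes in RNA after 12 h were set against each other gene by gene. One stimulus was the transcription factor E2F1, switched on by doxycycline from an integrated construct. The other was serum given to cells that carried an empty vector (EV). The comparison used 8 of the 22 RNA libraries of the series, 2 in each of 4 groups, and all 11208 genes of the deposited table. Group 1 was the E2F1 line after 48 h of starvation in 0.25% serum (E2F1 0 h), and group 2 was the same line 12 h after 500 ng/ml doxycycline (E2F1 12 h). Group 3 was the EV line after the same starvation (EV 0 h), and group 4 was the EV line 12 h after a return to 10% serum (serum 12 h). The EV line given doxycycline for 12 h (EV doxycycline, 2 libraries) served as the background for the drug and for time. All groups share the starvation, the cell line and an integrated doxycycline-inducible construct. The labels do not say whether a line is 1 clone, which form of E2F1 the construct carries, or what serum the doxycycline groups were kept in. The E2F1 change is E2F1 12 h minus E2F1 0 h, the serum change is serum 12 h minus EV 0 h, and the 2 changes have no library in common.

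Serum carries growth factors and lipids that act on receptors at the cell surface. Its signals run through ERK, the actin-regulated factor SRF, YAP, SMADs and MYC, and lead by way of D-type cyclins and CDK4 or CDK6 to phosphorylation of the retinoblastoma protein, which then releases E2F factors. E2F factors bind promoters of genes for S phase entry and DNA replication, and genes for mitosis follow later through MYBL2 and FOXM1. E2F1 supplied from a construct enters this order near its end, so the comparison asks which parts of the serum program it reaches without the steps before it.

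The 8 libraries held between 34043429 and 37385360 normalized counts, and the median gene stood between 1250 and 1413.5 in each. The table lists well-expressed genes only, with a lowest mean of 99.6 over all libraries. Of 12 fibroblast markers, 11 were in the table, and their summed level ranged from 1140625 to 1149768 at E2F1 0 h, from 709315 to 740838 at E2F1 12 h, from 1223419 to 1289496 at EV 0 h and from 876962 to 1073430 at serum 12 h. No marker of epithelium, endothelium or muscle was in the table, and 1 of 8 immune and 1 of 6 adipocyte markers were. E2f1 itself stood at 1703 and 1637 normalized counts at E2F1 0 h, at 2683 and 2845 at E2F1 12 h, at 1635 and 1655 at EV 0 h and at 4615 and 4247 at serum 12 h. It thus rose by 0.73 ± 0.11 (log2, standard error, SE) under the construct (adjusted p = 1.65e-05) and by 1.43 ± 0.11 under serum (adjusted p = 4.12e-09). Whether reads from the construct are counted under E2f1 was not tested, since the labels do not give its sequence. The EV doxycycline libraries differed from EV 0 h in 467 genes (4.17%), 84 higher (0.749%) and 383 lower (3.42%). Before any stimulus the lines differed in 1684 genes (15%), of which 208 (1.86% of all) differed by at least 2-fold. The median line difference (E2F1 0 h minus EV 0 h, log2) was 0.02 over all genes. It was 0.30 in genes that serum raised at least 2-fold and -0.16 in those it lowered at least 2-fold. These sets were cut on the serum change, which shares EV 0 h with the line difference. A higher start makes a rise from 0 h smaller for the same level at 12 h.

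Both stimuli moved most of the table. E2F1 changed 6898 genes (61.5%), 3569 upward (31.8%) and 3329 downward (29.7%), and serum changed 7367 (65.7%), 4039 upward (36%) and 3328 downward (29.7%). The test was limma on log2(normalized count + 1) across all libraries, and a gene was called at a Benjamini-Hochberg adjusted p under 0.05. Genes called in the same direction under both stimuli numbered 3842, of which 2131 were higher and 1711 lower. A further 1033 were called in opposite directions, 638 of them lower under E2F1 and higher under serum and 395 the reverse. The difference between the 2 changes, tested as a contrast of its own, passed the threshold in 5471 genes (48.8%). Of these, 2799 (25%) had the more positive change under E2F1 and 2672 (23.8%) the more positive change under serum. Across all genes, which are not independent replicates, the changes had a Pearson correlation of 0.45 and a Spearman correlation of 0.46, and the sign was shared by 66.7%. The p-values measure only the spread between these libraries, since the labels do not say that replicates were separate cultures. In a bulk sample, a shift in the share of cells at a stage of the cycle and a shift in RNA per cell cannot be told apart.

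**Figure D1:**
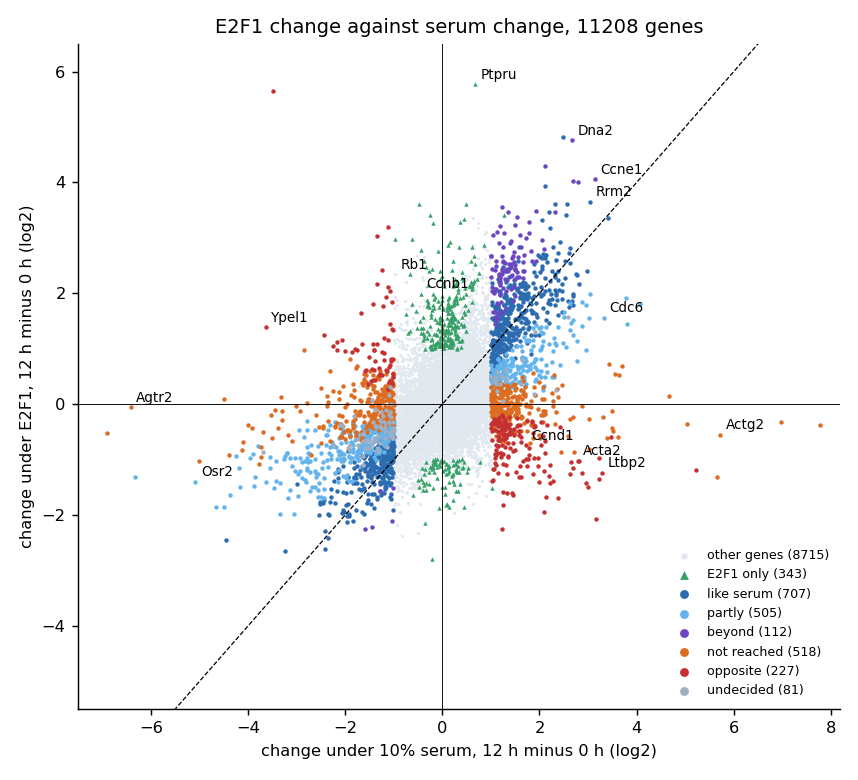
Each point is 1 of 11208 genes, with the serum change on the x axis and the E2F1 change on the y axis (both log2, 12 h minus 0 h, means of 2 libraries). Colours give the classes defined in the text for genes that serum changed by at least 2-fold, and the dashed line marks equal changes. Green marks genes that E2F1 changed by at least 2-fold with no serum change past the threshold. The cloud of serum-raised genes on the right spreads from above the line down to below 0, with a correlation of 0.06 within it.

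Serum raised 1151 genes by at least 2-fold (10.3% of all), and E2F1 did 1 of 5 things to nearly all of them. It raised 394 (34.2%) with no difference from serum past the threshold, here called like serum. It raised 208 (18.1%) significantly less than serum did (partly) and 107 (9.3%) significantly more (beyond). Another 259 (22.5%) had no E2F1 change past the threshold and differed from serum (not reached), and 164 (14.2%) fell under E2F1 (opposite). The remaining 19 (1.65%) were undecided. E2F1 thus moved 709 genes (61.6%) in the direction of serum. With EV doxycycline at 12 h as the base, 31.7% of the genes serum raised were like serum, 26% partly and 4.93% beyond. In the EV line with doxycycline alone, 117 of the 394 like-serum, 30 of the 208 partly and 46 of the 107 beyond genes fell. So did 16 of the 259 not reached and 14 of the 164 opposite, against 3.42% of all genes. That change shares EV 0 h with the serum change. The like-serum class is a class of differences not shown, with a median 95% interval of ± 0.52 (log2) around the difference. Not reached is likewise a class of E2F1 changes not shown, and the E2F1 12 h and 0 h libraries overlapped for 148 of its 259 genes. Since the classes were cut on these changes, their medians are descriptions. The median E2F1 change was 1.53 in like serum, 0.63 in partly, 2.42 in beyond, -0.03 in not reached and -0.64 in opposite, while the median serum change was between 1.30 and 1.47 in all 5. Among these 1151 genes the sizes of the 2 changes had a correlation of 0.06, a description across genes that serum's own threshold selected. E2F1 raised 1193 genes by at least 2-fold (10.6% of all). At least 2-fold rises under both stimuli were shared by 474 genes, 39.7% of those E2F1 raised and 41.2% of those serum raised.

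Of the 999 genes that serum lowered by at least 2-fold (8.91%), E2F1 moved 615 (61.6%) downward as well. This was like serum for 313 (31.3%), partly for 297 (29.7%) and beyond for 5 (0.501%). It left 259 (25.9%) not reached, raised 63 (6.31%), and 62 (6.21%) were undecided. E2F1 lowered 609 genes by at least 2-fold (5.43% of all). At least 2-fold falls under both stimuli were shared by 250 genes, which were 41.1% of the genes E2F1 lowered and 25% of those serum lowered.

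Most regulators of the step from G1 to S phase rose under both stimuli. Of 24 on the list, E2F1 raised 18 and lowered 3 (median 1.56, against -0.02 over all genes), and serum raised 20 and lowered 4 (median 1.37, against 0.05 over all genes). E-type cyclins, the partners of CDK2 at S phase entry, went beyond serum. Ccne1 stood at 666 and 544 normalized counts at E2F1 0 h, 9972 and 10090 at E2F1 12 h, 281 and 445 at EV 0 h and 3569 and 2763 at serum 12 h. All 4 stimulated libraries lay above the unstimulated ones, and both E2F1 12 h libraries above both serum 12 h libraries. The E2F1 change was 4.06 ± 0.22 (adjusted p = 8.75e-11) and the serum change 3.15 ± 0.22 (adjusted p = 1.33e-09), a difference of 0.91 ± 0.31 (adjusted p = 0.0212). That difference missed the threshold without replicate 2 of EV 0 h (0.58), of serum 12 h (0.72), of E2F1 0 h (0.76) or of E2F1 12 h (0.90). Ccne2, whose exons overlap those of Ints8, changed by 4.00 and 2.80 in the same order, and its difference of 1.19 ± 0.36 (adjusted p = 0.00996) missed the threshold without EV 0 h replicate 2 (0.89) or without E2F1 0 h replicate 2 (0.90). E2f7, a repressor of E2F targets that is itself a target, rose by 3.48 under E2F1 and 1.92 under serum, with a difference of 1.57 ± 0.30 (adjusted p = 0.000349). Mybl2, a subunit of the complex that turns on late cell cycle genes, rose by 3.35 ± 0.26 and 3.41 ± 0.26, and the 95% interval of its difference ran from -0.83 to 0.71. E2f7, Mybl2 and Ccne1 also fell in the EV line with doxycycline alone (-1.39, -1.14 and -0.88, each past the threshold). Counted from EV doxycycline at 12 h, the differences of Ccne1, Ccne2 and E2f7 were 0.03, 0.54 and 0.17 and missed the threshold, and that of Mybl2 was -1.20 and passed it. Compared directly at 12 h, Ccne1, Ccne2, E2f7 and Mybl2 stood higher under E2F1, by 1.68, 1.96, 2.06 and 0.85, each past the threshold.

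Ccnd1 and Ccnd2, which encode D-type cyclins, and Myc fell under E2F1 and rose under serum. Ccnd1 stood at 2064 and 2124 at E2F1 0 h, 1360 and 1157 at E2F1 12 h, 1724 and 2535 at EV 0 h and 7563 and 6251 at serum 12 h. It fell by 0.74 ± 0.24 on the log2 scale under E2F1 (adjusted p = 0.0121) and rose by 1.72 ± 0.24 under serum (adjusted p = 5.58e-06). The fall missed the threshold without E2F1 0 h replicate 2 (-0.72) or without E2F1 12 h replicate 2 (-0.62), and the EV doxycycline change of Ccnd1 was -0.86 (adjusted p = 0.0502). Myc, at 2399 and 2434 before and 1365 and 1116 after E2F1, fell by 0.97 ± 0.15 (adjusted p = 2.43e-05). Under serum Myc went from 1723 and 1865 to 3798 and 3834, a rise of 1.09 ± 0.15 (adjusted p = 5.69e-06). Ccnd2 changed by -0.98 and 0.75, both past the threshold, and its levels did not overlap between any 0 h and 12 h group. Ccnd3, which encodes the other D-type cyclin, rose under both, by 0.94 and 0.53.

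Brakes on the cycle named here rose under E2F1 and fell, or rose less, under serum. Rb1, the retinoblastoma protein that holds E2F in check, stood at 514 and 478 at E2F1 0 h, 2867 and 2209 at E2F1 12 h, 642 and 605 at EV 0 h and 319 and 312 at serum 12 h. Both E2F1 12 h libraries lay above all others and both serum 12 h libraries below all others. Rb1 rose by 2.34 ± 0.16 under E2F1 (adjusted p = 1.26e-09) and fell by 0.98 ± 0.16 under serum (adjusted p = 3.24e-05), a difference of 3.32 ± 0.23 (adjusted p = 4.24e-09). Its exons overlap those of Lpar6 and Rcbtb2. Cdkn2c, the INK4-type inhibitor p18 of CDK4 and CDK6, went from 5456 and 5039 to 23508 and 26174 under E2F1 and from 6887 and 7380 to 5039 and 5699 under serum. Cdkn1b, which encodes the CDK inhibitor p27, rose by 1.10 under E2F1 and fell by 0.98 under serum. Cdkn1a, the inhibitor p21, rose under both, by 2.32 ± 0.10 and 0.81 ± 0.10, with a difference of 1.5 ± 0.15 (adjusted p = 2.37e-07). Rb1, Cdkn2c, Cdkn1b, Ccnd2, Ccnd3 and E2f7 were picked after their values were seen.

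**Figure D2:**
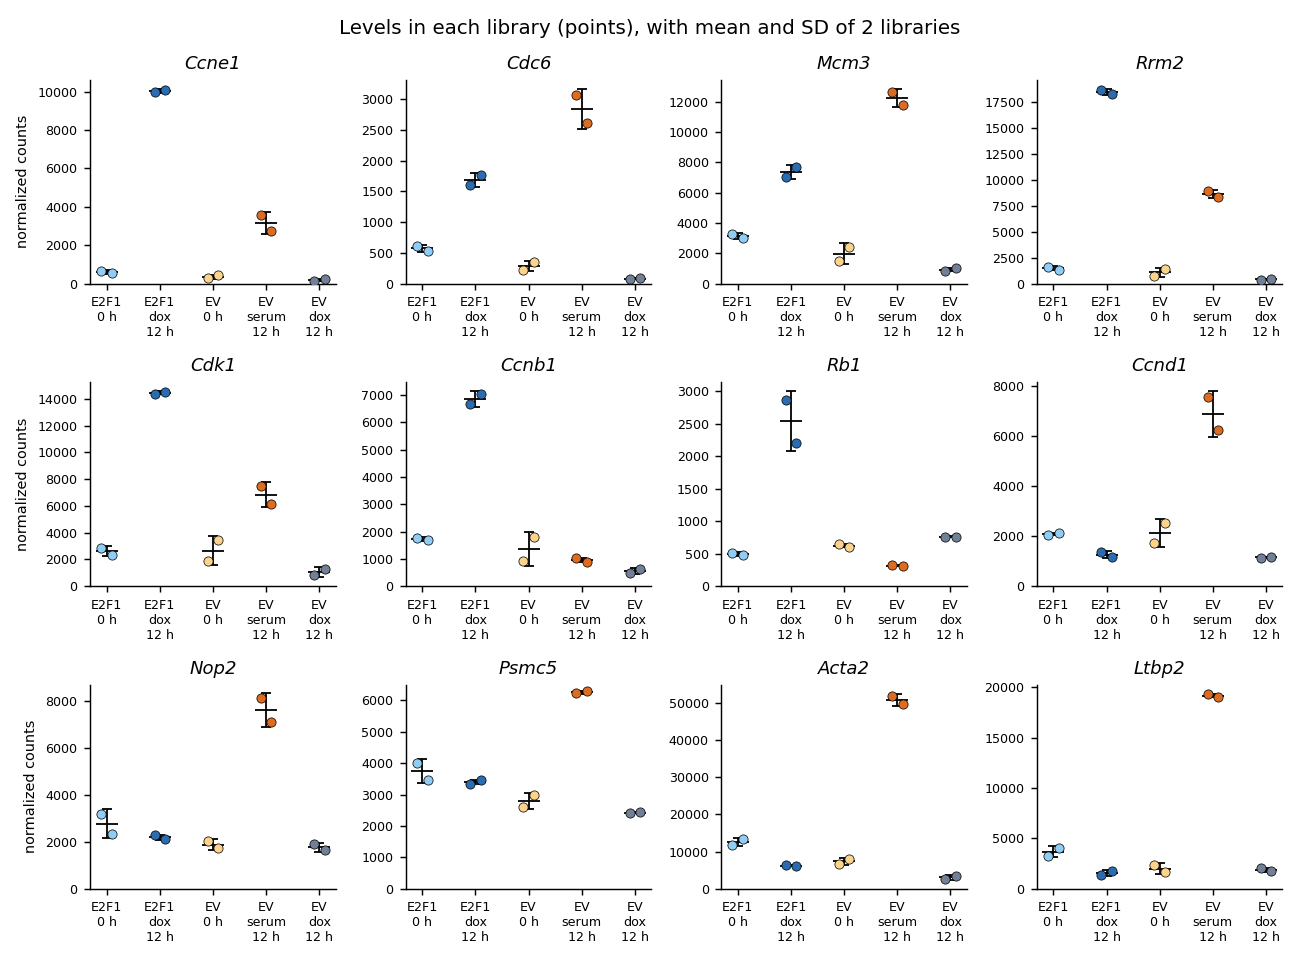
Normalized counts of 12 genes in each library (points) of the E2F1 line at 0 h and after 12 h of doxycycline, the EV line at 0 h, after 12 h of serum and after 12 h of doxycycline. Bars give the mean and SD of 2 libraries, and each y axis starts at 0. Ccnb1 and Rb1 were high only in the E2F1 12 h libraries among these groups, while Ccnd1, Nop2, Psmc5, Acta2 and Ltbp2 were high only at serum 12 h.

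Origin licensing, the loading of the MCM helicase onto DNA by ORC, CDC6 and CDT1, was reached only in part. Serum raised 22 of 23 genes on this list (median 2.05) and E2F1 raised 20 and lowered 1, Orc4 (median 1.20). The change was significantly smaller under E2F1 for 13 members and larger for 2, Cdc7 and Dbf4, which form the kinase that fires licensed origins. Mcm3 stood at 3274 and 2985 at E2F1 0 h, 7063 and 7692 at E2F1 12 h, 1483 and 2453 at EV 0 h and 12669 and 11804 at serum 12 h. It rose by 1.24 ± 0.17 under E2F1 and 2.68 ± 0.17 under serum (difference -1.44 ± 0.24, adjusted p = 6.99e-05). The EV line started lower, and Mcm3 fell in it under doxycycline alone, to 852 and 1013. Compared directly at 12 h, without the 0 h levels, Mcm3 was lower under E2F1 than under serum by 0.73 on the log2 scale (-0.73 ± 0.17, adjusted p = 0.000917). Over the list, 9 members were lower and 4 higher under E2F1 in this direct comparison, so the shortfall was smaller by level than by change (median -0.25 against -0.80). Counted from EV doxycycline at 12 h it was larger, with 16 members lower, none higher and a median of -1.81, and Dbf4 then missed the threshold (0.56). Cdc6, the loader that recruits MCM proteins, went from 609 and 538 to 1602 and 1770 under E2F1 and from 226 and 351 to 3069 and 2615 under serum. Its changes were 1.56 ± 0.21 and 3.33 ± 0.21, a difference of -1.77 ± 0.30 (adjusted p = 0.000106). Gins3, a subunit of the GINS complex of the active helicase, went from 394 and 403 to 1636 and 1568 under E2F1 and from 206 and 331 to 1109 and 984 under serum. Both changes of Gins3 were 2.00 ± 0.20, with a 95% interval of the difference from -0.58 to 0.60.

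The bases before the start sites of Gins3 and Cdc6 are shown because these promoters hold the same E2F motif while the genes fall in different classes. Capitals mark the motif, TTTCCCGC read on the other strand. The Gins3 stretch also ends in TTTGAA, the CHR motif described further on, which is left in small letters. No CHR was found for Cdc6, and matches to CCAAT and CCGGAAGT were likewise found for Gins3 only. These are RefSeq promoter sequences of the mouse build GRCm38.p6, written 5′ to 3′ on the gene's strand, at chr8:95633507-95633536 (plus strand) for Gins3 and chr11:98908002-98908031 (plus strand) for Cdc6. The stretches printed here and further on were chosen after the values were seen.
Gins3: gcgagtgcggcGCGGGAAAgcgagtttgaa
Cdc6: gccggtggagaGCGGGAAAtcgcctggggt

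The machinery of the replication fork, nucleotide supply for DNA and DNA repair rose under both stimuli by similar medians when counted from 0 h. All 27 measured fork genes rose under both (medians 1.67 and 1.81), with 4 significantly smaller and 3 larger under E2F1. Of 11 genes for deoxynucleotide supply, E2F1 raised 10 and serum 11 (medians 2.01 and 1.85). Of 25 repair and checkpoint genes, E2F1 raised 23 and serum 24 (medians 1.79 and 1.67), and 5 differed, 4 of them smaller under E2F1. Counted from EV doxycycline at 12 h, the changes under E2F1 were smaller for 16 of the 27 fork genes (median difference -0.83) and 17 of the 25 repair genes (median difference -0.84), and larger for 1 of each. Without EV 0 h replicate 2 the fork list had 10 smaller and 3 larger, and without replicate 1 it had 3 smaller and 7 larger. Rrm2, the regulated subunit of ribonucleotide reductase, stood at 1617 and 1341 at E2F1 0 h, 18684 and 18266 at E2F1 12 h, 785 and 1406 at EV 0 h and 8968 and 8394 at serum 12 h. The changes were 3.65 ± 0.24 and 3.04 ± 0.24, and the 95% interval of the difference ran from -0.12 to 1.33. Without EV 0 h replicate 1 the difference was 1.02 and passed the threshold. Pcna, the sliding clamp, rose by 2.16 ± 0.16 and 2.46 ± 0.16, with an interval of the difference from -0.78 to 0.18. Its difference passed the threshold without EV 0 h replicate 2 (-0.68) and from EV doxycycline (-0.93), and 2 processed copies named Pcna-ps1 and Pcna-ps2 could share its reads. Dna2, a nuclease that trims Okazaki fragments, had the largest excess over serum on the fork list. It went from 224 and 193 to 5854 and 5467 under E2F1 and from 114 and 157 to 974 and 759 under serum, a difference of 2.08 ± 0.45 (adjusted p = 0.00092) that from EV doxycycline was 0.86 and missed the threshold. Ung and Nme1 did not follow their lists. Ung, the uracil glycosylase of base excision repair, went from 90 and 164 to 1522 and 1370 under serum (3.56 ± 0.32) but from 260 and 197 to 327 and 334 under E2F1 (0.54 ± 0.32, adjusted p = 0.149). Nme1, a nucleoside diphosphate kinase, changed by 1.78 ± 0.15 under serum and by -0.03 ± 0.15 under E2F1 (adjusted p = 0.873).

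Genes for mitosis rose under E2F1 and mostly did not under serum at this time. All 34 on the list rose under E2F1 (median 2.17), whereas serum raised 14 and lowered 2 (median 0.37). The serum median turned negative without EV 0 h replicate 1, with 8 raised and 5 lowered (median -0.15), and without replicate 2 it was 0.90, with 18 raised and none lowered. The difference was past the threshold for 30 members, all higher under E2F1 (median 1.74). Ccnb1, the mitotic cyclin, stood at 1771 and 1686 at E2F1 0 h, 6654 and 7048 at E2F1 12 h, 935 and 1799 at EV 0 h and 1017 and 895 at serum 12 h. It rose by 1.99 ± 0.28 under E2F1 (adjusted p = 8.5e-06) and changed by -0.44 ± 0.28 under serum (adjusted p = 0.175), where its libraries overlapped those at 0 h. Without EV 0 h replicate 1 the serum change was -0.91 and passed the threshold, and from EV doxycycline it was 0.78. A processed copy named Ccnb1-ps could share its reads. Cdk1, the kinase it activates, went from 2866 and 2348 to 14388 and 14517 under E2F1 and from 1882 and 3412 to 7481 and 6152 under serum. Its changes of 2.48 ± 0.27 and 1.42 ± 0.27 differed by 1.06 ± 0.38 (adjusted p = 0.0264), and the difference missed the threshold without EV 0 h replicate 2 (0.63), without replicate 2 of E2F1 0 h (0.91), serum 12 h (0.92) or E2F1 12 h (1.05), and without E2F1 12 h replicate 1 (1.06). Plk1, a kinase of mitotic entry picked after its values were seen, went from 1050 and 1109 to 5243 and 5459 under E2F1 and from 907 and 1231 to 1054 and 1042 under serum. From EV doxycycline its serum change was 1.48 and its difference, 0.83, missed the threshold.

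The size of this excess rested on the level from which serum was counted. In the EV line the mitotic genes fell further with doxycycline alone, with 27 of 34 lower at 12 h than at 0 h (median -1.26, against 3.42% of all genes lower), and EV 0 h replicate 1 lay below replicate 2 for Ccnb1, Cdk1, Ccna2 and Foxm1. Counted from EV doxycycline at 12 h, serum raised 29 of 34 (median 1.70), the difference passed the threshold for 8 rather than 30, and its median was 0.47. For Cdk1, Ccna2 and Foxm1 it was then -0.22, -0.05 and -0.01, where from EV 0 h the differences were 1.06, 1.45 and 1.12. Without EV 0 h replicate 2 that of Ccna2 was 0.95 and that of Foxm1 0.79, and both missed the threshold. Ccna2, the S phase cyclin, shares exon positions with Exosc9. Without EV 0 h replicate 2 the difference passed for 21 members (median 1.28), and without replicate 1 for 33 (median 2.19). Compared directly at 12 h, all 34 stood higher under E2F1 than under serum (median 2.04), with Cdk1 higher by 1.09 ± 0.27 (adjusted p = 0.00156) and Ccnb1 by 2.84 ± 0.28 (adjusted p = 1.03e-07). The lines did not differ past the threshold at 0 h for Ccnb1 (0.41, adjusted p = 0.355) or Cdk1 (0.03, adjusted p = 0.952).

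The bases just before the RefSeq start site of Cdk1 are shown because its class, raised beyond serum, held the CHR motif more often than all genes did (23.4% against 11.6%). Cdk1 is in that class when serum is counted from EV 0 h, but from EV doxycycline at 12 h its difference was negative. CHR, with the letters TTTGAA, is the site bound by the MuvB complexes of mitotic genes. Capitals mark it at chr10:69352913-69352942 (minus strand) of GRCm38.p6. Matches to the E2F motif and to CCAAT, and a further CHR, were also found for Cdk1 upstream of this stretch.
Cdk1: ctttaccgcggcgagTTTGAAactgctggc

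The growth machinery that serum raised was mostly not reached. Of 26 genes for making ribosomes, serum raised 25 and lowered 1 (median 1.47), while E2F1 raised 7 and lowered 12 (median -0.19). The surplus of falls under E2F1 rested on single libraries, since 8 rose and 7 fell without E2F1 0 h replicate 1, and 7 rose and 7 fell without E2F1 12 h replicate 2. The difference passed the threshold for 25, of which 24 were higher under serum, and the exception, Ubtf, encodes a factor of ribosomal RNA transcription. Nop2, a methyltransferase of ribosomal RNA picked after its values were seen, stood at 3195 and 2334 at E2F1 0 h, 2263 and 2114 at E2F1 12 h, 2035 and 1710 at EV 0 h and 8125 and 7103 at serum 12 h. Its serum libraries stood above all others, and its E2F1 12 h libraries lay among the unstimulated ones. It rose by 2.03 ± 0.13 under serum (adjusted p = 7.73e-10), and its E2F1 change of -0.32 ± 0.13 (adjusted p = 0.047) missed the threshold without E2F1 0 h replicate 1 (-0.09) and without either E2F1 12 h replicate (-0.37 and -0.27). Rrp12, an export and processing factor, showed the widest gap on the list, 2.16 ± 0.14 under serum and -0.37 ± 0.14 under E2F1 (adjusted p = 0.0268). The latter missed the threshold without E2F1 0 h replicate 1 (-0.23) or E2F1 12 h replicate 2 (-0.18). Nop56, a core protein of methylation-guiding snoRNPs, was the nearest to serum among members that serum raised at least 2-fold, with 1.05 ± 0.08 under E2F1 and 1.54 ± 0.08 under serum. Counted from EV doxycycline at 12 h, or by level at 12 h, 25 of the 26 stood higher under serum and 1 lower.

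Other growth lists had the same split. E2F1 raised 31.8% and lowered 29.7% of all genes. Its raised share of the proteasome list and its lowered share of the glycolytic list lay near these, as did both its shares of the tRNA synthetases. All 25 proteasome genes rose under serum (median 0.85), E2F1 raised 8 and lowered 1 (median 0.07), and 24 differed, all higher under serum. The E2F1 direction of that list turned with scaling, since quantile normalization gave 2 higher and 8 lower (median -0.12), and without E2F1 0 h replicate 2 it had 3 higher and 1 lower (median -0.02). Without either E2F1 12 h replicate 4 of these genes were higher. Psmc5, an ATPase of the proteasome's cap, stood at 4015 and 3473 before and 3343 and 3451 after E2F1, and at 2604 and 2973 before and 6222 and 6293 after serum. Both E2F1 12 h libraries of Psmc5 lay just below their starting range and both serum libraries far above theirs. The 95% interval of its E2F1 change was -0.34 to 0.07. Of 19 cytosolic tRNA synthetases, serum raised 17 (median 0.97), E2F1 raised 5 and lowered 5 (median -0.09; 2 and 6 without E2F1 0 h replicate 2), and 18 differed. Gars, which charges glycine, was like serum at 1.01 and 1.21, while Tars, which charges threonine, changed by -0.34 and 1.10. The fall of Tars missed the threshold without E2F1 0 h replicate 1 (-0.29) or E2F1 12 h replicate 2 (-0.26). Of 18 chaperones, serum raised 16 (median 0.95) and E2F1 raised 8 and lowered 1 (median 0.24). Hsp90aa1, the inducible cytosolic HSP90, which was picked after its values were seen, went beyond serum at 2.31 ± 0.11 against 1.41 ± 0.11. Of 16 glycolytic genes, serum raised 12 and lowered 1 (median 0.59; 7 and 1 without EV 0 h replicate 1, median 0.34), and E2F1 raised 2 and lowered 5 (median -0.12). Hk2, the hexokinase that traps glucose, went from 539 and 528 to 2803 and 2614 under serum and from 1061 and 636 to 837 and 665 under E2F1, where the libraries overlapped and the 95% interval of the change was -0.60 to 0.32.

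Synthesis of nucleotides and one-carbon units lay between replication and growth. Serum raised all 21 genes (median 1.46), and E2F1 raised 14 and lowered 2 (median 0.42), with 16 changes smaller than under serum. Mthfd2, a mitochondrial enzyme of folate metabolism, rose like serum, by 1.98 ± 0.21 and 2.23 ± 0.21, with a 95% interval of the difference from -0.88 to 0.38. Shmt2, the enzyme just before it, went from 2645 and 2698 to 11883 and 10545 under serum and from 4410 and 3245 to 4949 and 4408 under E2F1. Its E2F1 change of 0.30 ± 0.15 (adjusted p = 0.0912), which passed the threshold without E2F1 0 h replicate 1 (0.53), was 1.76 below its serum change on the log2 scale (-1.76 ± 0.22, adjusted p = 3.13e-06). Its exons overlap those of Ndufa4l2.

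A stretch before the start site of Nop2 is shown because its class, raised by serum and lowered under E2F1, held the E-box letters CACGTG, the core bound by MYC and related factors, in 27 of 124 promoters (21.8%, against 10.6% of all). Capitals mark it at chr6:125131803-125131852 (plus strand) of GRCm38.p6.
Nop2: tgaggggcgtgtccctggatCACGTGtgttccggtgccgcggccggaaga

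Lists of genes that answer growth factor signals, actin and TGF-beta had medians below 0 under E2F1, between -0.23 and -0.54, and near or above 0 under serum, between 0.02 and 1.31. Of 24 actin and SRF targets, serum raised 18 and lowered 1 (median 0.59), while E2F1 raised 5 and lowered 11 (median -0.34), and the 18 that differed were all higher under serum. Acta2, smooth muscle actin, stood at 11752 and 13298 at E2F1 0 h, 6264 and 6026 at E2F1 12 h, 6729 and 8028 at EV 0 h and 51992 and 49641 at serum 12 h. Serum libraries stood above and E2F1 12 h libraries below their starting levels without overlap. Acta2 fell by 1.02 ± 0.14 under E2F1 (adjusted p = 3.54e-06) and rose by 2.79 ± 0.14 under serum (adjusted p = 3.51e-11), and with doxycycline alone the EV line changed by -1.30 ± 0.14 (adjusted p = 4.49e-05). The part of time or drug in the E2F1 fall of Acta2 was not tested. Myl9, a myosin light chain picked after its values were seen, fell from 423 and 646 to 115 and 157 under E2F1 and rose from 188 and 241 to 1153 and 726 under serum. Actg2, another smooth muscle actin, went from 30 and 18 to 1403 and 1165 under serum, and changed by -0.55 ± 0.36 under E2F1 (adjusted p = 0.198). Actn4, an actin cross-linker, was the nearest to serum among members raised at least 2-fold, at 1.31 ± 0.10 and 1.58 ± 0.10. Without EV 0 h replicate 2 its difference of -0.27 became -0.39 and passed the threshold.

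Of 14 genes of activin and TGF-beta signalling, serum raised 10 and lowered 2 (median 1.31), and E2F1 raised 3 and lowered 8 (median -0.54). Ltbp2, a matrix protein of the latent TGF-beta binding family whose exons overlap those of D030025P21Rik, stood at 3281 and 4074 at E2F1 0 h, 1365 and 1758 at E2F1 12 h, 2358 and 1621 at EV 0 h and 19294 and 19041 at serum 12 h. The serum libraries stood far above every other library, and the E2F1 12 h libraries below E2F1 0 h. The changes of Ltbp2 were -1.24 ± 0.17 (adjusted p = 4.69e-06) and 3.29 ± 0.17 (adjusted p = 5.11e-11), and the EV doxycycline change was -0.07 (adjusted p = 0.877). Skil, a repressor of SMADs, came nearest to serum among members raised at least 2-fold, at 0.71 ± 0.19 and 1.40 ± 0.19, with a difference of -0.69 ± 0.27 (adjusted p = 0.043). Without E2F1 0 h replicate 2 or E2F1 12 h replicate 1 its E2F1 change missed the threshold (0.54 and 0.49). The difference of Skil missed the threshold without any of the other 2 libraries of the E2F1 line or any of the 4 EV libraries (-0.46 to -0.72).

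Among 14 genes of ERK feedback, serum raised 7 and lowered 2 (median 0.34), and E2F1 raised 4 and lowered 4 (median -0.33), shares near the 31.8% and 29.7% of all genes. Serum raised 4 and lowered 1 without EV 0 h replicate 1 (median 0.26). Dusp5, a phosphatase that dephosphorylates ERK in the nucleus, stood at 726 and 1565 at E2F1 0 h, 376 and 338 at E2F1 12 h, 755 and 1777 at EV 0 h and 3068 and 2459 at serum 12 h. Both 0 h groups spread more than 2-fold for Dusp5, and the 12 h libraries lay outside that spread. The serum rise of 1.24 ± 0.34 (adjusted p = 0.00367) missed the threshold without EV 0 h replicate 1 (0.63), and the E2F1 fall was 1.58 on the log2 scale (-1.58 ± 0.34, adjusted p = 0.000583). Its exons overlap those of AC137853.2. Of 21 immediate early factors, which serum raises within the hour and which decline after, serum had 7 higher and 4 lower at 12 h (median 0.21) against 19 and 1 at 2 h, and E2F1 raised 4 and lowered 8 at 12 h (median -0.23). The serum median of that list was 0.77 from EV doxycycline and -0.08 without EV 0 h replicate 1. Of 16 YAP and TEAD targets, serum raised 6 and lowered 4 (median 0.02, below 0 under quantile normalization and equal totals, at -0.08 and -0.06, and without EV 0 h replicate 2 or serum 12 h replicate 1, at -0.06 and -0.08), and E2F1 raised 1 and lowered 9 (median -0.52). Without E2F1 0 h replicate 2 E2F1 lowered 5 of these 16. The serum shares of the YAP and TEAD list lay near the 36% higher and 29.7% lower of all genes. The 7 of 21 immediate early factors higher under serum were also near the share of all genes. Ccn2, the matricellular protein CTGF, changed by -0.81 ± 0.36 under E2F1 (adjusted p = 0.0575, past the threshold at -1.14 without E2F1 12 h replicate 1 and at -0.81 without either EV 0 h replicate) and 3.01 ± 0.36 under serum, and by -2.10 ± 0.36 with doxycycline alone (adjusted p = 0.00349). Of 21 growth factors and cytokines, serum raised 10 and lowered 5 (median 0.62), and E2F1 raised 3 and lowered 7 (median -0.46), a share lowered near the 29.7% of all genes. The E2F1 median was -0.08 without E2F1 0 h replicate 1 and -0.74 without replicate 2, and the serum median was 0.16 without serum 12 h replicate 1 and 0.93 without replicate 2.

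Stretches before the start sites of Myl9 and Dusp5 are shown because both genes rose under serum and fell under E2F1 and hold the CArG box, the site of SRF. CArG boxes were found in 6 of 22 matched actin and SRF targets (27.3%), a list drawn up as genes bound by SRF, and in 1.25% of all promoters. In the class raised by serum and lowered under E2F1 they were in 3 of 124 promoters (2.42%). On the ERK feedback list, which holds Dusp5, they were in 1 of 12. Capitals mark 1 box for Myl9 at chr2:156775284-156775333 (plus strand) and 2 adjoining boxes for Dusp5 at chr19:53529035-53529094 (plus strand), both GRCm38.p6.
Myl9: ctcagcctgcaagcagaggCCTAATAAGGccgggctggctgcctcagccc
Dusp5: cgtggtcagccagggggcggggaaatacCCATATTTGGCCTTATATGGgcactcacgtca

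**Figure D3:**
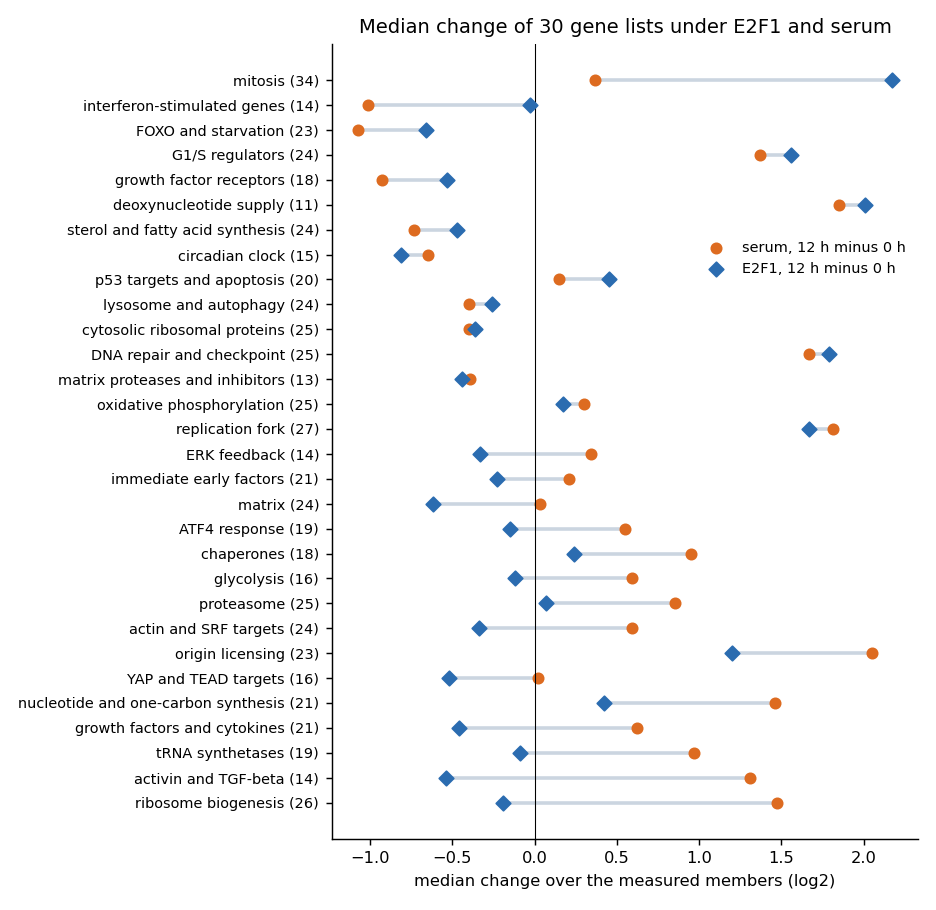
Each row is 1 of 30 gene lists, with its median change (log2, 12 h minus 0 h) under E2F1 and under serum on the x axis. The replication and repair lists have both medians above 1, mitosis has E2F1 at 2.17 and serum at 0.37, and ribosome biogenesis has E2F1 at -0.19 and serum at 1.47.

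Among the genes that serum switched off, those of starvation and FOXO fell under E2F1 too, but less. Of 23 on the list, serum lowered 18 and raised 1 (median -1.07), and E2F1 lowered 18 and raised 2, Cdkn1b and Foxo1 (median -0.66). The fall was smaller under E2F1 for most of the 14 members that differed, with 12 less negative and 2 more negative. Ccng2, a cyclin-like protein of quiescent cells, stood at 1896 and 1754 at E2F1 0 h, 852 and 947 at E2F1 12 h, 2442 and 2159 at EV 0 h and 219 and 209 at serum 12 h. All 12 h libraries lay below the 0 h ones, and the serum libraries lowest. It fell by 1.02 ± 0.23 under E2F1 and by 3.42 ± 0.23 under serum, and the difference was 2.40 ± 0.32 (adjusted p = 8.92e-06). Pik3ip1, an inhibitor of PI3 kinase whose exons overlap those of Gm12592, fell like serum, by 1.62 ± 0.18 and 1.53 ± 0.18, with a 95% interval of the difference from -0.61 to 0.43. Osr2, a transcription factor of mesenchyme, went from 2028 and 1561 to 46 and 57 under serum and from 1428 and 1071 to 451 and 488 under E2F1. Agtr2, the type 2 angiotensin receptor, went from 1427 and 734 to 15 and 8 under serum but from 1921 and 1415 to 1297 and 1918 under E2F1. Of 18 growth factor receptors, both stimuli lowered 14 and raised 2 (medians -0.53 and -0.93), and of 15 clock genes E2F1 lowered 8 and raised 1 while serum lowered 10 and raised 2. Sterol and fatty acid synthesis fell under both, with 15 of 24 lower and 1 higher under E2F1 (median -0.47) and 22 lower and 2 higher under serum (median -0.73). In the EV line 14 of these 24 also fell with doxycycline alone, and counted from there serum lowered 10 and raised 2 (median -0.15).

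Some genes that serum lowered had no change past the threshold or rose under E2F1, among them inducers of cell death. Trp53inp1, a p53 target, went from 1712 and 1618 to 363 and 391 under serum and from 1699 and 2107 to 2307 and 2074 under E2F1, where the 95% interval of the change was -0.06 to 0.48. Without E2F1 0 h replicate 2 that change was 0.36 and passed the threshold. Bbc3 and Bcl2l11, which encode the BH3-only proteins PUMA and BIM, fell by 1.60 and 1.46 under serum. Under E2F1 Bcl2l11 rose by 0.63 ± 0.14 (adjusted p = 0.00107) and Bbc3 by 0.59 ± 0.22 (adjusted p = 0.0261). The rise of Bbc3 missed the threshold without E2F1 0 h replicate 1 (0.46) or without either E2F1 12 h replicate (0.66 and 0.52). Bbc3 and Bcl2l11 were picked after their values were seen. On the whole list of 20 p53 targets and apoptosis genes, E2F1 raised 13 and lowered 3 (median 0.45) and serum raised 8 and lowered 5 (median 0.15). The serum shares of this list lay near the 36% higher and 29.7% lower of all genes, while E2F1 raised 31.8% of all genes. Of 14 interferon-stimulated genes, serum lowered 11 and raised 1 (median -1.01), and all 11 that differed had the more positive change under E2F1. E2F1 lowered 5 and raised 4 of the 14 (median -0.03, but 0.05 without E2F1 0 h replicate 2 and 0.07 without E2F1 12 h replicate 1). These E2F1 shares lay near the 29.7% lower and 31.8% higher of all genes. Ypel1, a small zinc-binding protein gene, was the largest reversal by serum change, from 659 and 651 to 46 and 58 under serum and from 391 and 540 to 1081 and 1352 under E2F1. Both serum libraries of Scara5 and of Aldh3a1 were listed at 0.

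Matrix genes split between the stimuli. Of 24, E2F1 lowered 19 and raised none (median -0.62), with 29.7% of all genes lower, while serum raised 10 and lowered 10 (median 0.03, and -0.05 with equal totals). The serum median was -0.09 without EV 0 h replicate 2 and without serum 12 h replicate 2, where 7 and 6 rose, and -0.16 from EV doxycycline. Tnc, tenascin C, stood at 14162 and 14057 before and 9730 and 8200 after E2F1, and at 12318 and 15002 before and 69750 and 49710 after serum. It changed by -0.66 ± 0.17 and 2.11 ± 0.17, and its groups did not overlap. Col3a1, a fibrillar collagen picked after its values were seen, fell under both, by 0.88 ± 0.19 and 3.20 ± 0.19. Of 25 cytosolic ribosomal proteins, 22 were lower under E2F1 and 19 under serum (medians -0.36 and -0.40). The E2F1 count rested on single libraries and on scaling, with 6 lower without E2F1 12 h replicate 1 (median -0.24), 15 and 14 without replicate 1 and 2 of E2F1 0 h, and 12 under quantile normalization (median -0.23). The serum count was 11 without serum 12 h replicate 1 and 13 without EV 0 h replicate 2.

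E2F1 also moved genes for which no serum change was called from EV 0 h, here called E2F1 only. It raised 255 and lowered 88 by at least 2-fold where serum had no change past the threshold and the difference passed. A missed threshold does not show that serum left a gene unchanged. The serum 12 h and EV 0 h libraries overlapped for 138 of the 255 and 40 of the 88. On the list of 34 mitotic genes were 17 of the 255, and counted from EV doxycycline at 12 h serum raised 29 of those 34 (median 1.70). In the EV line, doxycycline alone lowered 40 of the 255 and raised 1, against 3.42% and 0.749% of all genes. Ptpru, a receptor tyrosine phosphatase, stood at 18 and 15 normalized counts at E2F1 0 h and at 912 and 995 at E2F1 12 h, while the EV libraries at 0 h and serum 12 h lay between 9 and 32. It rose by 5.77 ± 0.93 (adjusted p = 3.37e-05), a value that depends on the added count of 1 because the starting level is low. Fam161a, a gene of cilia, and Eepd1, a nuclease-related gene, rose by 3.62 and 3.61. Tgfb1i1, the focal adhesion protein HIC-5, fell from 2377 and 3179 to 643 and 865 under E2F1, while it stood at 3419 and 3977 before and at 3642 and 3333 after serum. Dhtkd1, a mitochondrial dehydrogenase subunit whose exons overlap those of Gm13267, fell by 2.80 ± 0.33.

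The order in time differed as well. Changes at 2, 6 and 12 h share the 0 h libraries of their line, so they are given side by side only. At 2 h E2F1 had raised 97 genes and lowered 111, whereas serum had raised 4200 and lowered 3752. At 6 h E2F1 had raised all 27 fork genes (median 1.24) and 20 of 23 licensing genes (median 1.14), while the serum medians of these lists were -0.44 and 0.10. By 12 h the fork medians were 1.67 and 1.81. The mitotic median under E2F1 went from 0.53 at 6 h to 2.17 at 12 h. Ribosome biogenesis stood at 1.61, 1.62 and 1.47 under serum at the 3 times, and at 0.13, -0.08 and -0.19 under E2F1. Serum raised 19 of 21 immediate early factors and all 24 actin and SRF targets at 2 h (medians 2.15 and 1.70), where the E2F1 medians were -0.51 and 0.13. Of the 259 serum-raised genes not reached at 12 h, E2F1 had raised 32 and lowered 19 at 6 h. Over all 11208 genes it had raised 3230 and lowered 2569 at 6 h. The not-reached class was cut on no E2F1 call at 12 h, and that change shares E2F1 0 h with the 6 h change. The smaller shares in the class are therefore no result about its genes.

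**Figure D4:**
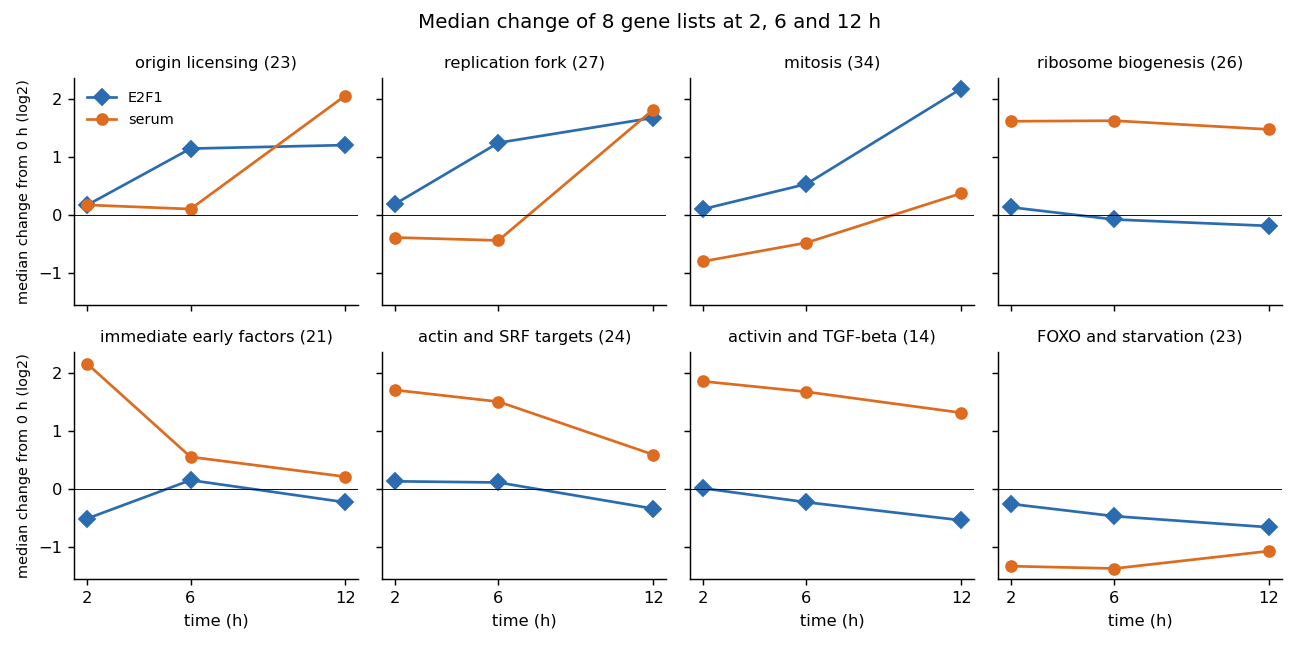
Median change from 0 h (log2, y axis) of 8 gene lists at 2, 6 and 12 h (x axis), with E2F1 in blue diamonds and serum in orange circles. Licensing and fork genes rise by 6 h under E2F1 and by 12 h under serum. Under serum ribosome biogenesis stays near its 2 h level, while immediate early factors go from 2.15 to 0.21 and actin and SRF targets from 1.70 to 0.59, and under E2F1 these medians lie between -0.51 and 0.15.

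Promoter letters differed between the classes. A window of 300 bases around the RefSeq start site, from 250 before to 50 after, was matched for 8609 genes (76.8%) and searched on both strands. The E2F motif, any of TTTCCCGC, TTTGGCGC, TTTCGCGC and TTTGCCGC, was in 4.54% of all matched promoters. It was in 45 of 305 like-serum promoters (14.8%), 23 of 164 partly (14%), 6 of 77 beyond (7.79%), 8 of 194 not reached (4.12%) and 2 of 124 opposite (1.61%). CHR, in 11.6% of all, was in 18 of 77 beyond (23.4%) and 48 of 187 raised by E2F1 only (25.7%). The E-box, in 10.6% of all, was in 35 of 194 not reached (18%) and in 9 of 187 raised by E2F1 only (4.81%). By list, the E2F letters were in 9 of 18 licensing promoters (50%) and 1 of 27 mitotic ones (3.7%), and CHR in 18 of the 27 (66.7%). A match is a string of letters, not a bound site, and none of these shares was tested.

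**Figure D5:**
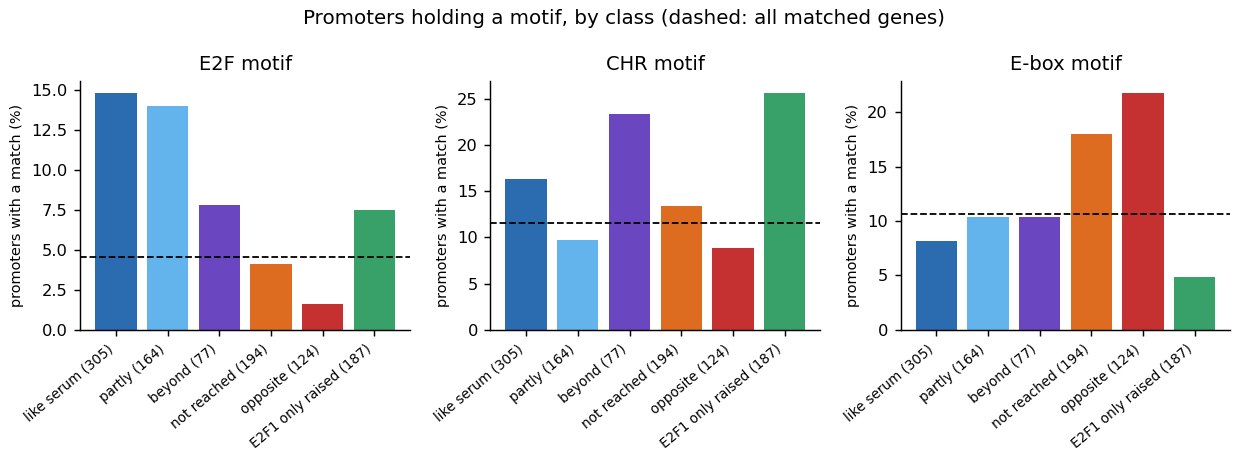
Share of matched promoters (%, y axis) that hold the E2F, CHR or E-box letters, for 5 classes of serum-raised genes and for genes raised by E2F1 only (x axis, number of promoters in brackets), with the share over all matched genes as a dashed line. E2F is highest in like serum (14.8%), CHR in E2F1 only (25.7%) and E-box in opposite (21.8%).

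In the authors' deposited table of E2F1 changes, 510 genes were listed, 435 higher and 75 lower, of which 322 were among the 11208 genes and all 322 were called in the same direction here. The authors' deposited table of serum changes listed 726, 284 higher and 442 lower, of which 413 were among the 11208 and all 413 were called in the same direction. The authors' deposited tables shared 80 genes, 15.7% of the E2F1 list and 11% of the serum list, and 76 of them had the same direction. These lists cover another set of genes, so their shares cannot be set beside the shared genes counted above. They come from the same comparisons, so the shared directions are not independent evidence.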

How the data were processed

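RNA of 22 NIH/3T3 libraries was selected by poly(A) and read as 150-base pairs, per the labels' protocols. The submitters' processing notes name FastQC, Trimmomatic, HISAT2, featureCounts, DESeq2 and the mouse build mm10, with no versions. The deposited values are normalized counts that the authors rounded to whole numbers, treated as a score rather than raw counts. How they were scaled, and whether strand was used, is not given in the sources used here, so overlapping genes and processed copies are uncertain. In 5 of the 8 libraries the steps between low values gave an estimate of 32200000 to 50300000 reads on the listed genes. That number is unknown for the other 3, and the full depth of each library is not given by it. The authors' deposited tables of changes (log2 fold changes with p-values) were read only for which genes they list and in which direction.

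Values were transformed to log2(value + 1), and limma 3.58.1 in R 4.3.3 fitted 11 group means over all 22 libraries with a mean-variance trend (11 residual degrees of freedom). P-values were adjusted by Benjamini-Hochberg over all 11208 genes, with a threshold of 0.05. A filter of at least 10 in at least 2 libraries removed no gene. Replicates differed by 3.01 to 3.76 times the counting noise expected if 1 normalized count were 1 read, and each was counted as 1 sample. Python 3.11.15 made the counts and matplotlib 3.10.9 the figures.

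The members and the 30 gene lists were chosen with earlier results of these data known. Genes are named by rule: for each class the 3 with the largest serum change (E2F1 change for beyond and E2F1 only), with a mean of at least 50 and non-overlapping libraries; for each list the members with the largest and smallest difference; and a fixed set of 14 (E2f1, Ccnd1, Ccne1, Ccne2, Cdc6, Mcm3, Pcna, Rrm2, Ccna2, Cdk1, Ccnb1, Myc, Foxm1, Cdkn1a). Other genes were picked after their values were seen. Some genes that this rule or the lists would name are not reported here. Alternatives covered the added count, filters, scaling, the groups fitted, the replicate block, leaving out each library, the serum baseline and direct comparison at 12 h.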

Additional observations from a re-analysis of the deposited data

How the results depend on the processing

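Leaving out 1 library at a time gave 5847 to 6941 genes changed by E2F1, 6290 to 7347 by serum and 4672 to 5054 that differed, with 597 to 814 raised and 489 to 657 lowered serum genes reached. The number reached followed the fold that defines the serum program, with 1378 raised and 1133 lowered at 1.5-fold and 128 and 144 at 4-fold, and 405 lowered with a mean of at least 500. The share reached moved less, between 56.1% and 63.4% for raised genes and 48.9% and 73.4% for lowered genes. Scaling moved the split of E2F1 calls from 51.7% higher to 43.2% (3131 higher, 4122 lower) under quantile normalization, with a median shift of all genes to -0.111, and to 46.5% with equal totals. The serum split went from 54.8% to 48.6% and 48.3%. Compared directly at 12 h, the difference of Mybl2 was 0.85 and that of Angptl7 -1.24, against -0.06 and 0.57 as changes. Counted from EV doxycycline at 12 h, differences turned to -0.22 for Cdk1, -0.05 for Ccna2, -0.01 for Foxm1, -0.50 for Dtymk and -1.18 for Gmnn, and serum changes to 0.78 for Ccnb1, 1.48 for Plk1 and 0.10 for Ccnb2. The cause was not tested. With that base, 954 of 1522 raised (62.7%) and 730 of 1226 lowered genes (59.5%) were reached. Replicate numbers are only numbers in the labels, and same-numbered libraries deviated together weakly (correlations -0.01 to 0.20). A fit with the replicate block gave 3601 higher and 3392 lower for E2F1, 4076 and 3385 for serum, and 2851 and 2723 for their difference, and 713 raised and 622 lowered genes reached. With 2 libraries a group, small differences could not be detected.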
